A study of Marchantia polymorpha and Arabidopsis thaliana with 54 samples.

Results

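Ascorbate peroxidases and catalases are major enzymes of hydrogen peroxide removal in plant cells, and their transcripts were followed in Arabidopsis thaliana seedlings exposed to heat. The members are 10 genes taken by their identifiers from a count table of 27655 genes: the ascorbate peroxidases APX1 (AT1G07890), APX2 (AT3G09640), APX3 (AT4G35000), APX5 (AT4G35970), APX6 (AT4G32320), SAPX (AT4G08390) and TAPX (AT1G77490), and the catalases CAT1 (AT1G20630), CAT2 (AT4G35090) and CAT3 (AT1G20620). They comprise 7 ascorbate peroxidases and 3 catalases, chosen by name, with earlier results of these data known. All 10 passed the filter on low counts, as did 22696 genes in all.

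Ascorbate peroxidases reduce hydrogen peroxide with electrons from ascorbate, which is then regenerated through the ascorbate-glutathione cycle. Catalases split hydrogen peroxide without a reductant and sit mainly in peroxisomes, where photorespiration produces the peroxide. In heat, APX2 is a classic target of heat shock factors, whereas APX1 is the abundant cytosolic form that is present without stress.

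The seedlings were 7 days old and grew on agar with sucrose in continuous light of 90 to 100 µmol per square metre and second. Whole seedlings were held at 37 °C for 1 h or stayed at 22 °C. The labels give the controls a time of 0 h, so heat and the elapsed hour cannot be told apart. There were 3 heat libraries labelled eTK, 6 control libraries labelled eTK, 3 Col-0 heat libraries and 6 Col-0 control libraries. Col-0 is the wild type. The labels list HSFA1A, HSFA1B and also HSFA1D, which encode heat shock factors, as the genes lost in eTK, without stating the alleles. Replicates 1 to 3 of every group carry the label batch 1 and replicates 4 to 6 of the controls batch 2, so heat was measured in batch 1 only. RNA was taken from whole seedlings, so fewer cells of a type and less RNA per cell cannot be told apart.

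Library totals lay between 58370609 and 110875442 counts, and the 10 members held between 0.305% and 0.449% of them. The transcripts of the genes listed as lost were not all lower in libraries labelled eTK. Under control conditions the eTK line had less HSFA1B and less HSFA1D transcript than Col-0 (log2 difference −3.09 ± 0.14 and −1.39 ± 0.08 SE, adjusted p = 4.02e-12 and 1.19e-10 by edgeR's quasi-likelihood test), whereas HSFA1A was higher (0.96 ± 0.12, adjusted p = 9.1e-06). In heat HSFA1B and HSFA1D were again lower (−3.75 ± 0.20 and −1.91 ± 0.11), and HSFA1A did not pass (−0.33 ± 0.19, adjusted p = 0.166). As the alleles are not stated, these levels cannot show whether each gene is lost. Directions drawn from the eTK line therefore rest on libraries labelled eTK. HSFA2, a heat-induced heat shock factor, averaged 9.35 ± 1.33 CPM, counts scaled by library size and TMM factor, in heat libraries labelled eTK and 9675 ± 594 CPM in Col-0 heat libraries (SD, n = 3 each), against 0.271 ± 0.228 CPM in control libraries labelled eTK and 1.04 ± 0.424 CPM in Col-0 control libraries (n = 6 each). Of the tissue markers, photosynthetic genes summed to 13850 to 15413 CPM in heat and 20742 to 22641 CPM in control libraries labelled eTK. In Col-0 they summed to 17361 to 22708 CPM in heat and 17166 to 21785 CPM in control. These sums hide opposite changes of single genes. In heat LHCB1.1 fell by 3.50 in libraries labelled eTK and 3.83 in Col-0 on the log2 scale, and CAB3 by 1.71 and 1.24. RCA rose by 0.85 in Col-0, against 0.14 in libraries labelled eTK, and RBCS1A was not called. In batch 2 controls LHCB1.1 and CAB3 were lower than in batch 1 in both lines, and RCA was higher. Root markers summed to between 39.6 and 106.2 CPM over all groups. Stomatal lineage markers summed to 23.3 to 25.7 CPM in heat and 33.2 to 39.2 CPM in control libraries labelled eTK. In Col-0 they summed to 21.5 to 22.8 CPM in heat and 36.1 to 54.5 CPM in control, so heat lay below control in both lines. TMM fell by 1.47 in libraries labelled eTK and by 2.21 in Col-0 on the log2 scale. SPCH was called lower in libraries labelled eTK alone (−0.61), and MYB60 was not called in heat. None of the 4 photosynthetic, 4 root, 3 stomatal or 3 seed markers was at 0 in a whole group. Seed markers summed to 8.1 to 24.2 CPM in heat libraries labelled eTK, 5.7 to 41.0 CPM in control libraries labelled eTK, 0.185 to 53.0 CPM in Col-0 heat and 0.212 to 1.85 CPM in Col-0 control.

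The promoters of the cytosolic pair are printed because APX1 and APX2 are the members whose heat change differed between the lines. Each stretch is the 250 bases before the annotated gene start, from the RefSeq annotation of TAIR10.1. APX2 lies on the plus strand of chromosome 3 from 2956156 to 2958330, with the stretch at chr3:2955906-2956155, and APX1 on the plus strand of chromosome 1 from 2437281 to 2439665, with the stretch at chr1:2437031-2437280. The annotation places no other feature in either stretch. Capitals mark matches to a heat shock element of 2 inverted units, written GAANNTTC or TTCNNGAA.
APX2: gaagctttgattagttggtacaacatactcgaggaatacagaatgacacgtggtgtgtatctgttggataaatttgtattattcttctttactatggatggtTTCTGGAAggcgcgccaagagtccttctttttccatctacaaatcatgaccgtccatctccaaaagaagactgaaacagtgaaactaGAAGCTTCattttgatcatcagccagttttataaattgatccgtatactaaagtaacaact
APX1: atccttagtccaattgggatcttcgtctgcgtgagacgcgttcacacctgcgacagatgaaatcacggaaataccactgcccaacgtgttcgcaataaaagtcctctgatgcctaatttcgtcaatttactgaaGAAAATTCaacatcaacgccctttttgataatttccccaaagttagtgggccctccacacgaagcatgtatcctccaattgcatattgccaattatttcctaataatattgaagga
The APX2 stretch holds a match at 148 and another at 61 bases before the start, and the APX1 stretch holds 1 match at 116 bases. Both motifs read the same on either strand. Among the 27443 promoters searched, 16.1% hold at least 1 of the motifs. APX5 holds 1 match at 219 bases and CAT1 holds 2 matches at 232 and 175 bases, both inside the end of its neighbour CAT3. The other 6 members hold none in this window, and in a window of 300 bases that runs 50 bases past the start CAT2 and CAT3 gain 1 each, where 19.3% of promoters hold a match. An element of 3 units was also searched for, and none of the 10 members holds it in either window, APX2 included. Of the 27443 promoters, 0.39% hold it in the 250 bases before the start. A match is a stretch of letters and was not tested for binding.

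The other members lie on chromosomes 1 and 4 in TAIR10.1. On chromosome 1, TAPX spans 29117500 to 29121093, CAT3 7142972 to 7146540 and CAT1 7146636 to 7150180, all on the plus strand. On chromosome 4, SAPX spans 5314871 to 5317963, APX6 15602721 to 15605400 and APX5 17028586 to 17030558 on the plus strand, and APX3 16664724 to 16667721 and CAT2 16700312 to 16703504 on the minus strand. Counts cover whole genes, so no value belongs to a single exon or UTR.

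Of the peroxidases grouped here as cytosolic, APX1 and APX2 differed between the lines in heat and APX6 did not pass (−0.11 ± 0.10, adjusted p = 0.353). APX2, the heat-inducible cytosolic form, had 0.824, 0.665 and 0.619 CPM in the heat libraries labelled eTK, against 491, 568 and 510 CPM in the Col-0 heat libraries. In the 6 control libraries of either line it did not pass 0.119 CPM. These levels correspond to 133 counts over the 3 heat libraries labelled eTK, 34 counts over the 6 control libraries labelled eTK, 64865 counts over the 3 Col-0 heat libraries and 36 counts over the 6 Col-0 control libraries. Heat libraries lay above all control libraries of their own line, and the Col-0 heat libraries lay far above the others. The fitted heat change of APX2 was 3.50 ± 0.37 on the log2 scale in libraries labelled eTK (SE, adjusted p = 3.89e-07) and 12.94 ± 0.30 in Col-0 (adjusted p = 5.88e-17). The difference of these changes, the genotype by heat interaction, was −9.44 ± 0.64 (adjusted p = 1.41e-09). With so few control counts these fitted sizes are uncertain and the SE may be too small. In batch 1 alone the change was 4.28 in libraries labelled eTK and 12.45 in Col-0, with an interaction of −8.16 (adjusted p = 4.38e-06). In heat alone, where Col-0 has ample counts, APX2 was lower in libraries labelled eTK by −9.54 ± 0.26 (adjusted p = 1.18e-15). In control the lines gave −0.10 ± 0.43 (adjusted p = 0.903), and −1.37 in batch 1 alone (adjusted p = 0.0568).

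APX1, the main cytosolic form, had 719, 733 and 728 CPM in heat libraries labelled eTK, against 460, 524 and 563 CPM in their batch 1 controls and 810, 812 and 690 CPM in their batch 2 controls. In Col-0 it had 1285, 1226 and 1272 CPM in heat, against 671, 680 and 689 CPM in batch 1 controls and 954, 910 and 884 CPM in batch 2 controls. Heat libraries lay above the batch 1 controls in both lines, but in the line labelled eTK they lay among the batch 2 controls. APX1 rose by 0.46 ± 0.09 in libraries labelled eTK (SE, adjusted p = 0.000224) and by 0.93 ± 0.09 in Col-0 (adjusted p = 3.06e-08). The rise was smaller in libraries labelled eTK, with an interaction of −0.47 ± 0.11 (adjusted p = 0.00507). Scaling by library size alone gave 0.16 for this interaction (adjusted p = 0.24), on a scale where the median of all genes moved to 0.63. In control APX1 was lower in libraries labelled eTK (−0.32 ± 0.07, adjusted p = 0.00106), by −0.24 in batch 2 and −0.40 in batch 1 (adjusted p = 0.0779 and 0.00725). In heat it differed by −0.80 ± 0.09 (adjusted p = 1.58e-06; with library size alone −0.16, adjusted p = 0.152).

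As a share within each library, which no scaling factor touches, APX2 made up 0.0967% ± 0.0156 of the APX1 and APX2 counts in heat libraries labelled eTK and 29.3% ± 2.10 in Col-0 heat libraries (SD, n = 3 each). In batch 1 controls the share was 0.0058% ± 0.0056 in libraries labelled eTK and 0.0133% ± 0.0013 in Col-0 (n = 3 each). The heat libraries did not overlap the controls in either line, at p = 0.1 by a two-sided exact permutation test, the smallest that 3 against 3 libraries allow. The coding sequences of the pair are 72.7% identical over their alignment and share no run longer than 12 bases.

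APX6, an ascorbate peroxidase by name that is grouped here with the cytosolic forms, rose alike in direction in both lines. Its location and activity were not tested. It had 31.0, 32.7 and 30.7 CPM in heat libraries labelled eTK, and its 6 controls there had a lowest, median and highest level of 18.6, 21.9 and 23.6 CPM. Col-0 had 38.8, 32.0 and 31.1 CPM in heat, and its controls had 18.5, 19.5 and 21.4 CPM. No heat library overlapped a control of its line. The changes were 0.62 ± 0.09 in libraries labelled eTK (adjusted p = 1.07e-05) and 0.85 ± 0.09 in Col-0 (adjusted p = 1.37e-07), and the interaction was not called (−0.22 ± 0.12, adjusted p = 0.179). Scaling by library size alone gave 0.13 in Col-0 (adjusted p = 0.205).

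**Figure D1:**
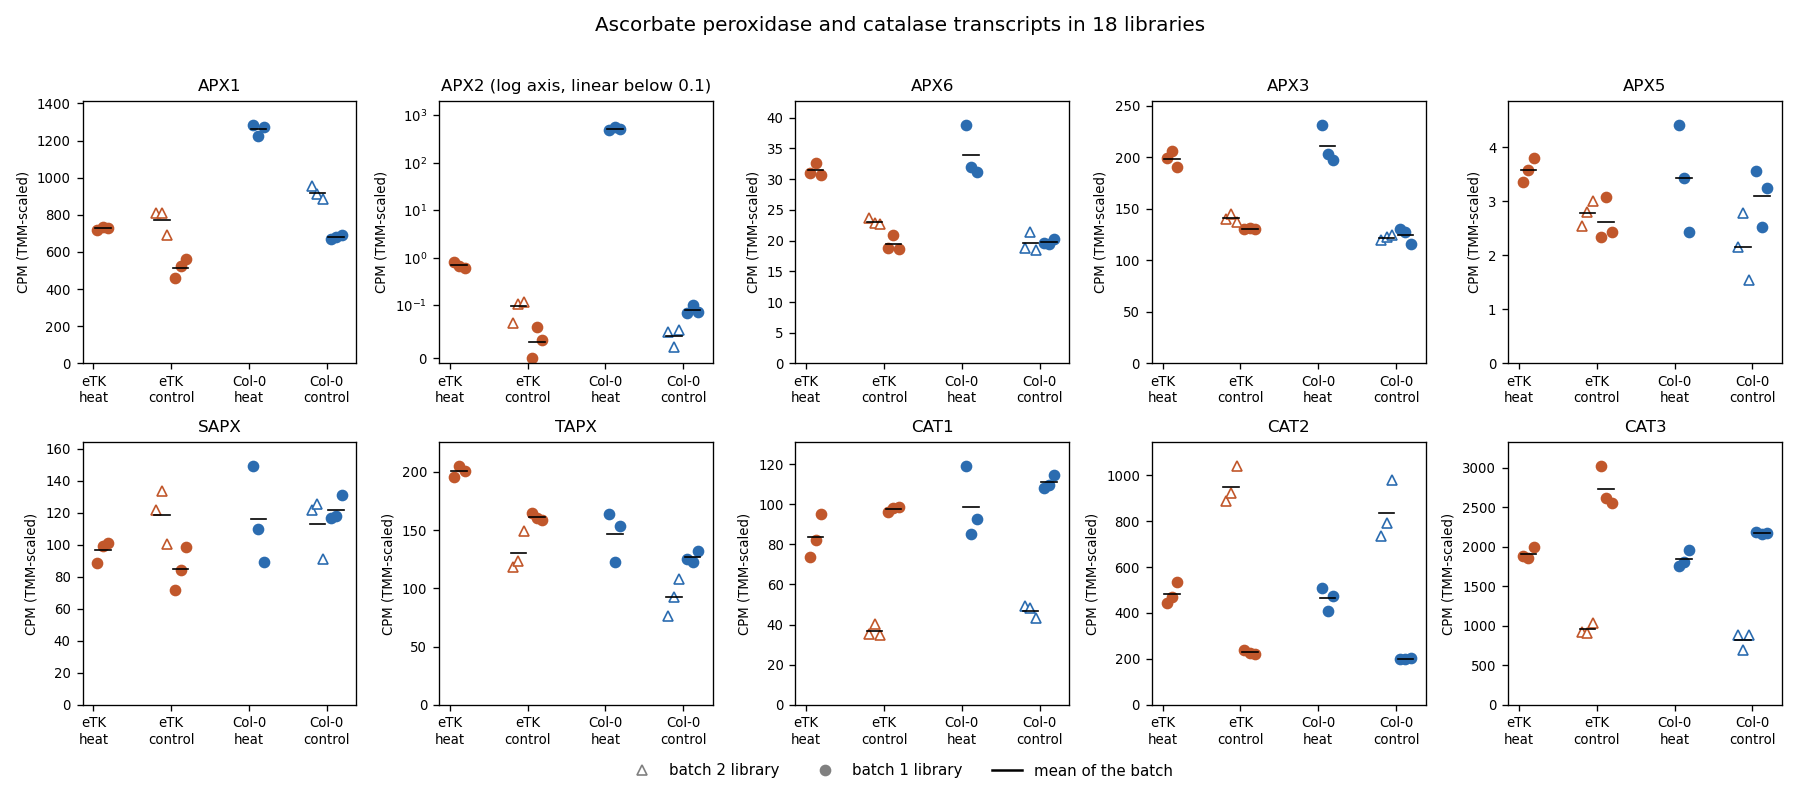
Level of each member in every library, in TMM-scaled CPM on linear axes from 0, except APX2, whose axis is logarithmic above 0.1 CPM and linear below. Points are libraries, open triangles batch 2 and filled circles batch 1, and lines are means of a batch; APX2 reaches 491 to 568 CPM only in Col-0 heat, and the catalases separate by batch in both lines.

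The microsomal forms, which sit on peroxisomal membranes, are APX3 and its minor relative APX5. APX3 had 199, 206 and 190 CPM in heat libraries labelled eTK, and a lowest, median and highest level of 130, 134 and 145 CPM in their 6 controls. Col-0 had 231, 203 and 197 CPM in heat, and 115, 123 and 130 CPM in the controls. Heat and control libraries did not overlap in either line. APX3 rose by 0.57 ± 0.07 in libraries labelled eTK (adjusted p = 3.64e-06) and by 0.79 ± 0.07 in Col-0 (adjusted p = 2.89e-08), with an interaction that was not called (−0.22 ± 0.10, adjusted p = 0.101; DESeq2 gave 0.0491). With library size alone the Col-0 change was 0.08 (adjusted p = 0.355). APX5 was rare, at 92 to 336 counts per library, and its heat change was 0.29 in both lines with an SE of 0.23 (adjusted p = 0.292 in libraries labelled eTK and 0.272 in Col-0). APX5 shares 76 bases with AT4G35980 on the opposite strand, and whether the counting used strand is not given in the sources used here.

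The chloroplast forms had small changes, most of which did not pass the test. TAPX, the thylakoid-bound enzyme, had 196, 205 and 201 CPM in heat libraries labelled eTK and 165, 160 and 159 CPM in their batch 1 controls, without overlap. Col-0 had 164, 123 and 153 CPM in heat and 125, 123 and 132 CPM in batch 1 controls, which overlap. Its change was 0.28 ± 0.11 in libraries labelled eTK (adjusted p = 0.0452) and 0.25 ± 0.11 in Col-0 (adjusted p = 0.0632). The call in libraries labelled eTK was lost under 14 of 26 alternatives, among them the omission of any single eTK heat library (adjusted p 0.0702 without replicate 1, 0.119 without replicate 2 and 0.0882 without replicate 3) and of 9 of the 12 control libraries; its adjusted p ranged from 0.0134 to 0.13. The Col-0 value gained a call under 5 of 26 alternatives, with an adjusted p of 0.0369 under relative log expression scaling, 0.0288 by DESeq2, 0.0303 with the replicate block, 0.0125 without Col-0 heat replicate 2 and 0.039 without Col-0 control replicate 6. With library size alone it was −0.47 (adjusted p = 0.000568). TAPX was higher in libraries labelled eTK than in Col-0 in control (0.42 ± 0.09, adjusted p = 0.00109) and in heat (0.45 ± 0.12, adjusted p = 0.00552). The control difference was 0.50 in batch 2 and 0.35 in batch 1 (adjusted p = 0.00617 and 0.0386).

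SAPX, the stromal enzyme, had 88.7, 99.5 and 101 CPM in heat libraries labelled eTK and 149, 110 and 89.4 CPM in Col-0 heat libraries. Its controls spanned 71.4 to 133 CPM in libraries labelled eTK and 90.9 to 131 CPM in Col-0, so heat and control overlapped in both lines. The heat change was 0.03 ± 0.18 in libraries labelled eTK (adjusted p = 0.898) and 0.07 ± 0.18 in Col-0 (adjusted p = 0.74). With a batch effect per line the edgeR value in Col-0 was −0.07 (adjusted p = 0.734). In control SAPX differed between the lines by 0.08 in batch 2 (adjusted p = 0.746) and by −0.53 in batch 1 (adjusted p = 0.0164). TAPX made up 67.5% ± 1.19 of the chloroplast APX counts in heat libraries labelled eTK and 56.1% ± 6.11 in Col-0 heat libraries, and 65.7% ± 4.03 and 51.0% ± 0.682 in the batch 1 controls of libraries labelled eTK and of Col-0 (SD, n = 3 each).

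Over all 10 members, heat called 6 higher and 1 lower in libraries labelled eTK, beside 27% higher and 28.7% lower among the genes tested. In Col-0 it called 5 higher and 1 lower, where 31.2% of genes were called higher and 32.4% lower. Scaled by library size alone, 3 members were higher and 4 lower in Col-0 heat, and 1861 genes were higher and 15306 lower, a scale on which the median of all genes stood at −0.75. The median log2 change of the members was 0.37 in libraries labelled eTK and 0.54 in Col-0, beside −0.01 and −0.04 over all genes tested. In the interaction 2 members, APX1 and APX2, were called lower and the other 8 did not pass, where 12.6% of genes were called lower and 12.5% higher. Library size alone called 7 members higher and 1 lower there, with 14323 genes higher and 1024 lower.

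**Figure D2:**
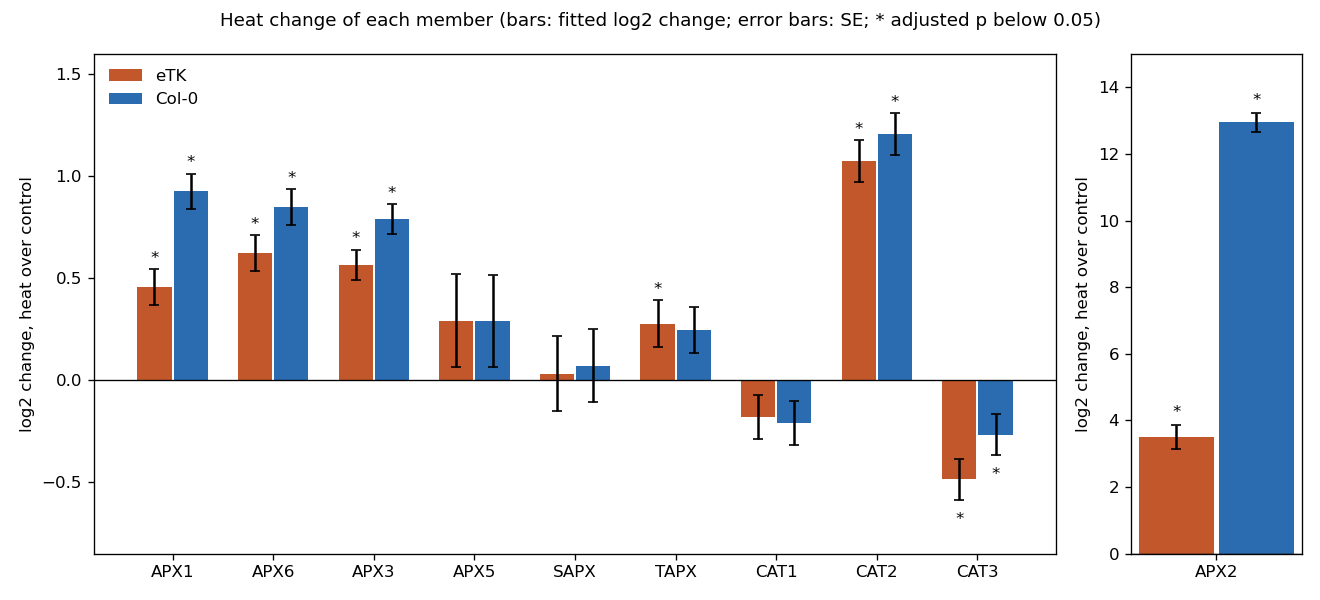
Fitted log2 change in heat for each member, libraries labelled eTK left and Col-0 right, with SE as error bars and asterisks at an adjusted p below 0.05; APX2 has an axis of its own. CAT2 rises and CAT3 falls in both lines, whereas APX2 rises by 3.50 in libraries labelled eTK and by 12.94 in Col-0.

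The catalases shifted toward CAT2 in heat in both lines. CAT2, the main photorespiratory catalase of leaves, had 442, 468 and 535 CPM in heat libraries labelled eTK, against 240, 226 and 219 CPM in their batch 1 controls. In Col-0 it had 510, 407 and 475 CPM in heat, against 199, 200 and 204 CPM in batch 1 controls. Heat libraries lay above the batch 1 controls in both lines and below all batch 2 controls, which had 887, 921 and 1040 CPM in libraries labelled eTK and 734, 792 and 978 CPM in Col-0. CAT2 rose by 1.07 ± 0.10 in libraries labelled eTK (adjusted p = 1.11e-07) and by 1.21 ± 0.10 in Col-0 (adjusted p = 1.29e-08). The interaction was −0.13 ± 0.14 (adjusted p = 0.53). CAT2 shares 95 bases with AT4G35080 on the opposite strand.

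CAT3, a catalase prominent in vascular tissue and in older leaves, was the most abundant member by CPM in batch 1. It had 1880, 1861 and 1996 CPM in heat libraries labelled eTK, against 3018, 2616 and 2548 CPM in their batch 1 controls. In Col-0 it had 1755, 1808 and 1962 CPM in heat, against 2184, 2165 and 2173 CPM in batch 1 controls. Heat libraries lay below the batch 1 controls in both lines. CAT3 fell by 0.49 ± 0.10 on the log2 scale in libraries labelled eTK (adjusted p = 0.000462) and by 0.27 ± 0.10 in Col-0 (adjusted p = 0.0265). The Col-0 call was lost under 4 of 26 alternatives, with an adjusted p of 0.0503 under relative log expression scaling, 0.051 with a batch effect per line, 0.0824 without Col-0 heat replicate 1 and 0.0692 without replicate 2. In control CAT3 was higher in libraries labelled eTK (0.27 ± 0.07, adjusted p = 0.01). That difference was 0.23 in batch 2 (adjusted p = 0.156) and 0.33 in batch 1 (adjusted p = 0.0394).

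CAT1, which is best known from seeds and pollen, had 73.8, 82.2 and 95.0 CPM in heat libraries labelled eTK against 96.0, 98.0 and 98.8 CPM in their batch 1 controls. In Col-0 it had 119, 84.9 and 92.6 CPM in heat against 108, 110 and 115 CPM in batch 1 controls. It was not called in heat (−0.18 ± 0.11 in libraries labelled eTK, adjusted p = 0.164, and −0.21 ± 0.11 in Col-0, adjusted p = 0.0988). Without Col-0 heat replicate 1, whose level was the highest, the Col-0 value was −0.37 (adjusted p = 0.00444). In control CAT1 was lower in libraries labelled eTK (−0.27 ± 0.08, adjusted p = 0.0178). The difference was −0.35 in batch 2 (adjusted p = 0.00371) and −0.18 in batch 1 (adjusted p = 0.0862), and the call was lost under 5 of 25 alternatives, one being batch 1 alone (adjusted p = 0.309) and 4 the omission of a single batch 2 library (Col-0 control replicate 4 or 5, or eTK control replicate 4 or 6, adjusted p 0.0522, 0.0504, 0.0542 and 0.0574). CAT1 and CAT3 are neighbours on chromosome 1, with 95 bases between the end of CAT3 at 7146540 and the start of CAT1 at 7146636. The coding sequences of CAT1 and CAT2 are 80.3% identical and share a run of 32 bases. Whether reads lay within such runs and were split by the counting was not tested.

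Within the catalase counts of a library, CAT2 took 19.4% ± 0.966 in heat libraries labelled eTK and 7.50% ± 0.301 in their batch 1 controls (SD, n = 3 each). In Col-0 it took 19.3% ± 1.90 in heat and 8.09% ± 0.083 in batch 1 controls. CAT3 took 77.2% ± 1.24 and 89.3% ± 0.606 in heat and batch 1 control libraries labelled eTK, and 76.6% ± 2.64 and 87.5% ± 0.214 in those of Col-0. The heat and control shares of CAT2 and CAT3 did not overlap in either line (two-sided exact permutation p = 0.1, the smallest possible). The share of CAT1 was 3.37% ± 0.271 in heat and 3.21% ± 0.309 in batch 1 controls labelled eTK, and 4.12% ± 0.761 and 4.46% ± 0.133 in those of Col-0, and it did not separate (exact permutation p = 0.6 and 0.4). The summed catalase level was 2477 ± 129 CPM in heat libraries labelled eTK against 3054 ± 263 CPM in batch 1 controls (exact permutation p = 0.1), and 2404 ± 116 against 2486 ± 9.37 CPM in Col-0 (exact permutation p = 0.4). For APX1, APX2 and APX6, grouped here as cytosolic, the sums were 759 ± 7.59 CPM in heat against 535 ± 52.1 CPM in batch 1 controls labelled eTK. In Col-0 they were 1818 ± 7.09 against 699.9 ± 9.46 CPM (exact permutation p = 0.1 for both lines). Microsomal forms summed to 202 ± 7.68 against 133 ± 1.27 CPM in libraries labelled eTK and 214 ± 19.3 against 128 ± 7.90 CPM in Col-0 (exact permutation p = 0.1 for both). Chloroplast forms summed to 297 ± 10.9 against 246 ± 10.6 CPM in libraries labelled eTK (exact permutation p = 0.1) and 263 ± 43.8 against 249 ± 12.8 CPM in Col-0 (exact permutation p = 0.8).

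**Figure D3:**
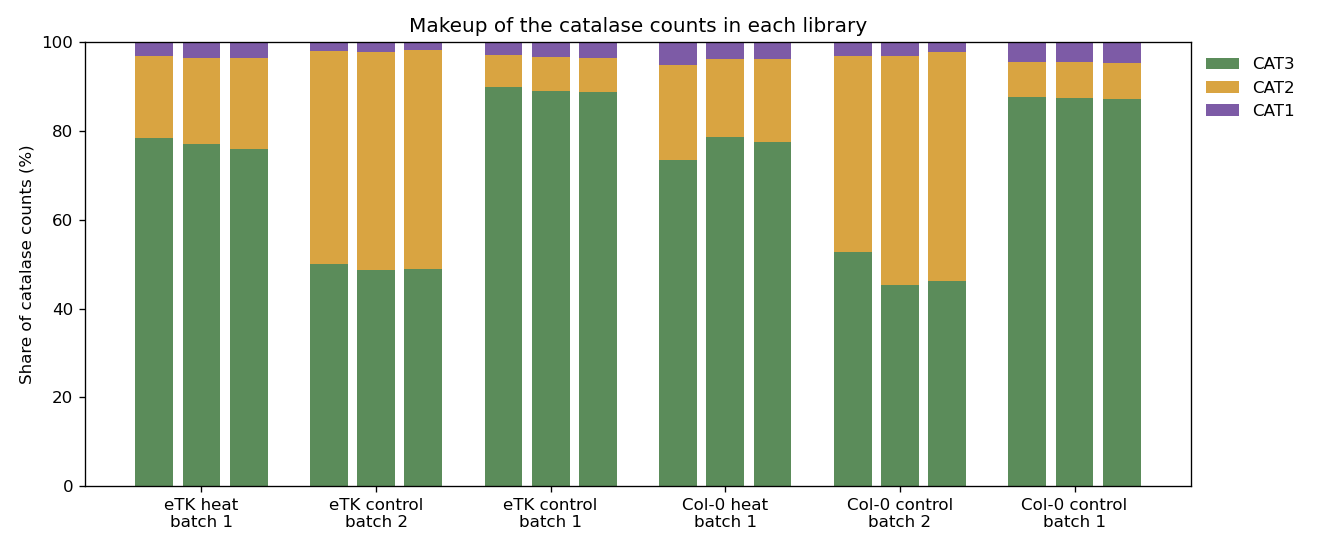
Makeup of the catalase counts in each library as percent of CAT1, CAT2 and CAT3 counts together, with 3 libraries per group and batch. CAT2 takes 19.4% in heat libraries labelled eTK and 19.3% in Col-0 heat libraries, 7.50% and 8.09% in the batch 1 controls, and 48.9% and 49.0% in the batch 2 controls.

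For each catalase the log2 difference between batches was larger in size than that in heat. In control CAT2 was higher in batch 2 than in batch 1 by 2.09 ± 0.11 both in libraries labelled eTK (adjusted p = 1.98e-08) and in Col-0 (adjusted p = 2.03e-08). CAT3 was lower in batch 2 by −1.48 ± 0.11 in libraries labelled eTK (adjusted p = 5.2e-07) and by −1.37 ± 0.11 in Col-0 (adjusted p = 1.03e-06). CAT3 had 923, 909 and 1029 CPM in batch 2 controls labelled eTK and 877, 697 and 881 CPM in those of Col-0, all below the batch 1 levels given above. CAT1 was lower in batch 2 by −1.37 ± 0.08 in libraries labelled eTK (adjusted p = 2.9e-08) and by −1.20 ± 0.08 in Col-0 (adjusted p = 1.06e-07). The ratio of CAT3 to CAT2 counts was 1.01 ± 0.030 in batch 2 and 11.9 ± 0.572 in batch 1 in control libraries labelled eTK, and 0.992 ± 0.177 and 10.8 ± 0.137 in those of Col-0 (SD, n = 3 each).

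APX1 was higher in batch 2 in both lines (0.62 ± 0.09 in libraries labelled eTK and 0.47 ± 0.09 in Col-0, adjusted p = 0.000263 and 0.00201). Of the 9 members tested there, 4 were called higher and 2 lower in batch 2 in libraries labelled eTK, where 15.6% of 22443 genes were higher and 12.6% lower. In Col-0 2 were called higher and 3 lower, where 19.9% of genes were higher and 15.2% lower. The calls beyond CAT1, CAT2, CAT3 and APX1 were SAPX (0.53 ± 0.14) and APX6 (0.29 ± 0.08) in libraries labelled eTK and TAPX (−0.42 ± 0.12) in Col-0, with adjusted p of 0.0145, 0.0132 and 0.0129. The SAPX call was lost without eTK control replicate 1 or 5 (adjusted p 0.0705 and 0.0606), and the APX6 call without eTK control replicate 1, 3 or 4 (0.0542, 0.0558 and 0.0503). APX2 had too few counts to be tested. No member was called in the genotype by batch test by edgeR, where 5.95% of genes were. Of the 9 members 2 had an unadjusted p under 0.05 there, beside 24.4% of genes, and DESeq2 called 1, beside 12.3% of genes, so both counts are near the share over all genes. By edgeR the 2 were SAPX (0.60 ± 0.20, adjusted p = 0.0907) and APX6 (0.26 ± 0.11, adjusted p = 0.159). The batch term shared by the lines in the main fit does not follow differences of this kind.

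Clock genes, chosen after their values were seen, moved with the batches. LHY and CCA1, which peak in the morning, were higher in batch 2 (LHY 3.36 ± 0.18 in libraries labelled eTK and 4.20 ± 0.19 in Col-0, CCA1 1.23 ± 0.23 and 1.88 ± 0.24). The later-peaking genes GI (−4.33 ± 0.11 and −3.76 ± 0.11) and PRR5 (−2.47 ± 0.11 and −1.96 ± 0.11) were lower in batch 2, as were TOC1 (−0.90 and −0.81) and PRR9 (−2.17 and −1.67), in the same order of lines. All 6 passed the test in both lines (adjusted p at most 0.0154). CAT2 and CAT3 transcripts are known to follow the clock in opposite phases, and the part of sampling time in these batch differences was not tested. In heat GI was lower (−1.71 in libraries labelled eTK and −1.94 in Col-0), as were PRR5 (−2.20 and −1.53) and TOC1 (−0.20 and −0.58). PRR9, which was lower in batch 2, was higher in heat (1.31 and 3.29). CCA1 was called higher in Col-0 alone (2.46, against 0.09), and LHY in libraries labelled eTK alone (0.52, against 0.47 in Col-0). The part of the elapsed hour in the heat changes was not tested.

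**Figure D4:**
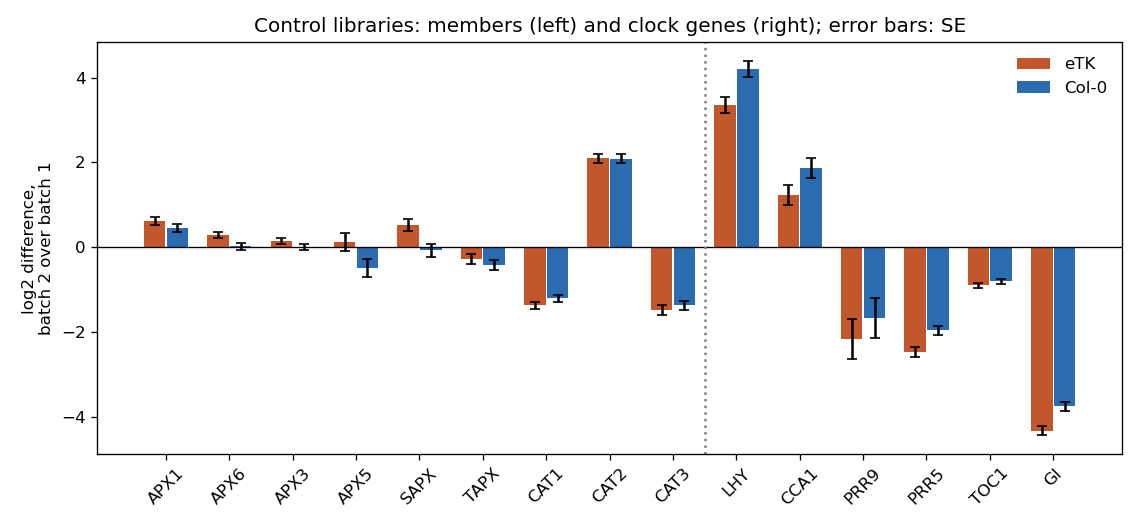
Fitted log2 difference of batch 2 over batch 1 in control libraries, labelled eTK left and Col-0 right, for 9 members and 6 clock genes, with SE as error bars. CAT2 is higher by 2.09 in both lines, CAT1 and CAT3 are lower, and the clock genes reach from −4.33 to 4.20.

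Between the lines, in control, TAPX and CAT3 were called higher in libraries labelled eTK and APX1 and CAT1 lower, where 13.4% of genes were called higher and 13.8% lower. In heat TAPX was called higher and APX1 and APX2 lower, where 23.3% of genes were called higher and 23.1% lower. Library size alone called 7 members higher and 1 lower in heat, with 15271 genes higher and 1668 lower. APX3 and APX6 did not pass in control over both batches (0.14 ± 0.06 and 0.11 ± 0.07, adjusted p = 0.0775 and 0.258), but both were higher in libraries labelled eTK in batch 2 (0.21 and 0.25, adjusted p = 0.0363 and 0.0322) and not in batch 1 (0.07 and −0.02, adjusted p = 0.461 and 0.886); the genotype by batch test called neither (adjusted p = 0.393 and 0.159). DESeq2 called APX3 over both batches (adjusted p = 0.0432). CAT2 did not pass in control (0.19 ± 0.08, adjusted p = 0.0992) or in heat (0.05 ± 0.11, adjusted p = 0.73), nor did CAT3 in heat (0.05 ± 0.11, adjusted p = 0.7).

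Levels were set between genes per kilobase of annotated exon. In heat libraries labelled eTK the order was CAT3 (565 ± 21.6 CPM per kilobase), APX1 (406 ± 3.84), CAT2 (174 ± 17.4), APX3 (149 ± 5.87), TAPX (79.7 ± 1.82), SAPX (48.7 ± 3.43), CAT1 (37.6 ± 4.8), APX6 (26.0 ± 0.869), APX5 (2.65 ± 0.160) and APX2 (0.658 ± 0.1), with no overlap between neighbours. In Col-0 heat libraries APX1 led at 704 ± 17.2 CPM per kilobase, followed by CAT3 (544 ± 31.9) and APX2 (490 ± 37.7), whose ranges overlapped. Below these came CAT2 (168 ± 18.9) and APX3 (159 ± 13.8), which overlapped, then SAPX, TAPX and CAT1 at 58.7 ± 15.3, 58.3 ± 8.48 and 44.4 ± 8.04, each overlapping the next, then APX6 (28.1 ± 3.48) and APX5 (2.53 ± 0.735). APX2 was last in each of the other groups. In batch 1 controls CAT3 led, at 806 ± 75.0 CPM per kilobase in libraries labelled eTK and 642 ± 2.68 in Col-0, with APX1 next (288 ± 29.1 and 380 ± 5.11). In batch 2 controls APX1 led (430 ± 39.0 and 512 ± 19.7), followed by CAT2 (343 ± 28.9 and 302 ± 46.2) and CAT3 (282 ± 19.4 and 242 ± 31.1), in the same order of lines.

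Across the 18 libraries, which share treatment, batch and scaling, the members fell into a few patterns of log2 CPM, given as description. APX3 and APX6 had a Pearson r of 0.97, CAT1 and CAT3 of 0.89, and CAT2 of −0.86 with CAT1 and −0.88 with CAT3. The 3 genes most like APX2 were MFDX2 (r = 0.99), HSFB2B (0.99) and AT4G03940 (0.99), and those most like APX1 were AT1G59960 (0.973), FD1 (0.966) and OCP3 (0.965). For APX3 they were HDA15, MSD1 and GPDHp (0.97 to 0.98), for APX6 APX3, GPDHp and UBC36 (0.97 each), and for APX5 PP2-A1, AT3G26340 and AT2G22230 (0.84 to 0.90). For TAPX they were BBX27, COR314-TM2 and RCP1 (0.95 to 0.98) and for SAPX NAKR2, AT3G51870 and DHDPS2 (0.92 to 0.93). For the catalases they were ALDH6B2, AT5G63620 and AT5G39410 with CAT1 (0.95 to 0.98), AT4G38950, FADA and D27 with CAT2 (0.98 each), and PIF4, PSD3 and PHS2 with CAT3 (0.99 each).

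Genes that feed or work beside these enzymes were set beside them. Of 10 genes of the ascorbate-glutathione cycle, 8 rose and 1 fell in libraries labelled eTK, and 9 rose in Col-0 (1 higher and 2 lower with library size alone), with medians of 0.53 and 0.65. Over all genes tested, 27% were called higher and 28.7% lower in heat libraries labelled eTK, and 31.2% and 32.4% in those of Col-0. DHAR2, a dehydroascorbate reductase, rose by 1.30 ± 0.09 in libraries labelled eTK and 1.59 ± 0.09 in Col-0 (adjusted p = 1.63e-09 and 3.34e-11), and GR1, a glutathione reductase, by 1.07 and 0.86. Both were also higher in batch 2 than in batch 1 controls, GR1 by 1.02 and 1.03 and DHAR2 by 0.81 and 0.63, in the same order of lines. Of the monodehydroascorbate reductases, MDAR3 rose by 0.98 in libraries labelled eTK and 0.65 in Col-0, and MDAR6 by 0.54 and 0.80, with neither interaction past the test (adjusted p = 0.304 and 0.294). GR2, the organellar glutathione reductase, fell by 0.40 ± 0.09 in libraries labelled eTK (adjusted p = 0.00098), against 0.04 ± 0.09 in Col-0 (adjusted p = 0.729), with an interaction of −0.44 ± 0.12 (adjusted p = 0.00925).

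Of 8 genes of ascorbate synthesis, 3 rose and 2 fell in libraries labelled eTK, and 5 rose and 1 fell in Col-0 (1 higher and 4 lower with library size alone), with medians of 0.06 and 0.48, beside 27% higher and 28.7% lower over all genes in libraries labelled eTK and 31.2% and 32.4% in Col-0. In libraries labelled eTK the counts are near those shares. VTC2, the enzyme that commits GDP-galactose to ascorbate, rose by 0.57 ± 0.10 and 0.95 ± 0.10 in libraries labelled eTK and in Col-0, with a smaller rise in libraries labelled eTK by the interaction (−0.38 ± 0.13, adjusted p = 0.0397). VTC4 (0.83) and GalDH (0.62), which act after VTC2, rose in Col-0, against 0.06 and 0.07 in libraries labelled eTK, which did not pass. VTC3 rose by 0.64 in libraries labelled eTK and by 0.60 in Col-0. VTC5, a homologue of VTC2, fell by 0.31 and 0.53 in the same order of lines. GME fell by 0.31 in libraries labelled eTK, against 0.20 in Col-0, which did not pass. The interaction called 5 of the 8 lower, where 12.6% of all genes were: VTC1, VTC2, VTC4, GME and GalDH.

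Of 17 peroxiredoxins and glutathione peroxidases, 9 rose and 1 fell in libraries labelled eTK and 11 rose in Col-0, where the other 6 did not pass (4 higher and 5 lower with library size alone), with medians of 0.38 and 0.77, and the interaction called 5 lower. Over all genes, 27% were higher and 28.7% lower in libraries labelled eTK, 31.2% and 32.4% in Col-0, and the interaction called 12.6% lower. PRXIIB, a cytosolic peroxiredoxin, rose by 0.64 ± 0.09 in libraries labelled eTK and by 2.30 ± 0.09 in Col-0 (interaction −1.65 ± 0.12, adjusted p = 3.69e-09). Its close relative PRXIID rose by 1.53 in libraries labelled eTK and by 1.61 in Col-0. PRXIIC gave 0.66 in libraries labelled eTK, which did not pass (adjusted p = 0.0682), and rose by 1.87 in Col-0. Its interaction was −1.21 ± 0.40 (adjusted p = 0.0361). Its batch difference was 0.35 in libraries labelled eTK and 1.17 in Col-0 (genotype by batch −0.83, adjusted p = 0.0199). The batch term shared by the lines does not follow this. Counts of PRXIIB, PRXIIC and PRXIID, which are close copies, may share reads. GPX2 rose by 0.56 in libraries labelled eTK and by 1.09 in Col-0, with an interaction that did not pass (−0.53 ± 0.23, adjusted p = 0.109). The interaction also called 2CPB (−0.84), GPX3 (−0.56) and GPX1 (−0.37) lower. GPX1, a chloroplast glutathione peroxidase, was the gene that fell in libraries labelled eTK (by 0.53), against −0.16 in Col-0, which did not pass. PER1, a peroxiredoxin of seeds, rose by 2.48 ± 0.65 in Col-0 (adjusted p = 0.00301). Its levels there were 1.05, 2.51 and 0.106 CPM in heat against 0.0488 to 0.252 CPM in control, and they overlapped. The seed marker CRU1, a storage protein, had 11.3, 50.3 and 0.106 CPM in the same heat libraries. In Col-0 heat CRU1 rose by 4.87 and the seed marker OLEO1 by 3.15, but the seed marker EM6 did not pass (−0.02, adjusted p = 0.991). The batch difference of EM6 was not alike in the lines (genotype by batch −3.08, adjusted p = 0.0458). The part of seed transcripts in the PER1 result was not tested.

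Of 11 sources of hydrogen peroxide, 6 rose in libraries labelled eTK, where the other 5 did not pass, and 5 rose and 2 fell in Col-0 (3 higher and 6 lower with library size alone), with medians of 0.56 and 0.36. Over all genes, 27% were higher and 28.7% lower in libraries labelled eTK, and 31.2% and 32.4% in Col-0. The interaction called 1 higher and 1 lower, near the 12.5% and 12.6% of all genes. GOX1, a glycolate oxidase of photorespiration, rose by 1.07 ± 0.12 and 1.20 ± 0.11 in libraries labelled eTK and in Col-0, beside the CAT2 changes of 1.07 and 1.21. GOX3 rose by 0.87 in libraries labelled eTK, against 0.36 in Col-0, which did not pass (interaction 0.51 ± 0.25, adjusted p = 0.148). Its batch difference was 0.32 in libraries labelled eTK and 1.08 in Col-0 (genotype by batch −0.76, adjusted p = 0.0445). The batch term shared by the lines does not follow such a difference. The other genes that rose in both lines were GOX2 (0.66 and 0.70), HAOX1 (0.56 and 0.51) and the NADPH oxidase RBOHD (0.66 and 0.91). Some of these also differed between the control batches. In batch 2 RBOHD was higher by 1.18 and 1.24, GOX1 by 1.22 and 0.80 and GOX2 by 0.72 and 0.33, in the same order of lines. HAOX1 did not pass there. RBOHE, an NADPH oxidase, rose by 0.71 ± 0.17 and 1.46 ± 0.18, with an interaction of −0.75 (adjusted p = 0.0249). RBOHC, the NADPH oxidase of root hairs, fell by 1.56 ± 0.21 in Col-0 (adjusted p = 2.83e-06) against −0.30 ± 0.19 in libraries labelled eTK (adjusted p = 0.188; interaction 1.26 ± 0.26, adjusted p = 0.00115). RBOHF, another NADPH oxidase, fell by 0.49 in Col-0, against −0.15 in libraries labelled eTK, which did not pass, nor did its interaction (0.33 ± 0.16, adjusted p = 0.144). Of the 4 root markers, 2 rose and 2 fell in libraries labelled eTK and 2 fell in Col-0, and their part in the RBOHC result was not tested. The catalase partner NCA1, a chaperone of catalase activity, rose by 0.49 and 0.61, and LSD1, a zinc finger protein that binds catalases, by 1.01 and 0.97, in libraries labelled eTK and in Col-0. APX4, a lumen protein related to ascorbate peroxidases, rose by 0.49 ± 0.11 in Col-0 (adjusted p = 0.000941), against 0.06 ± 0.12 in libraries labelled eTK (interaction −0.43 ± 0.15, adjusted p = 0.0447).

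**Figure D5:**
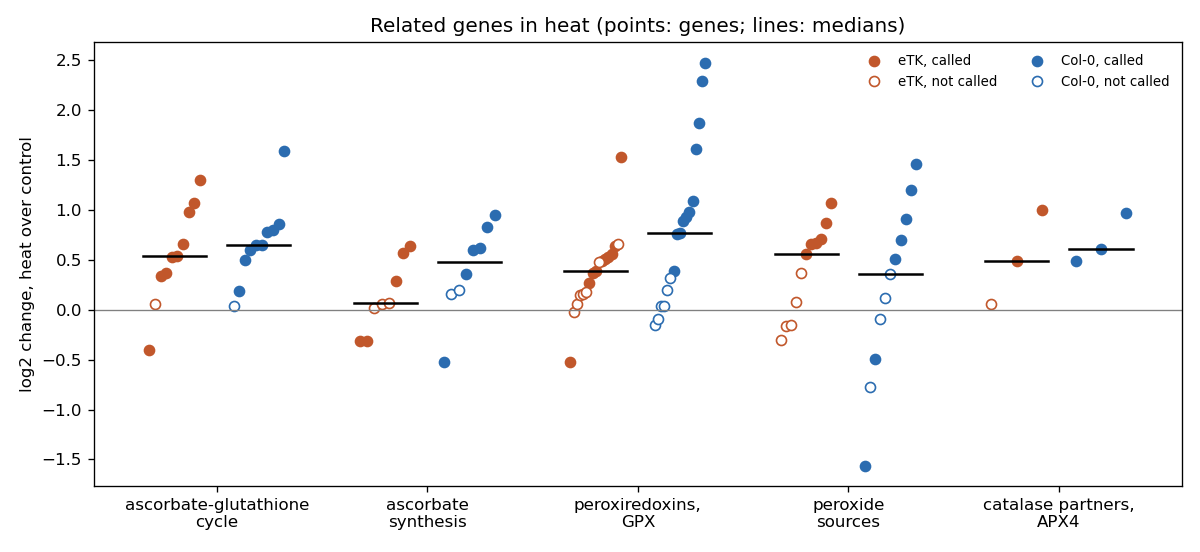
Fitted log2 heat changes of the related genes by list, libraries labelled eTK left and Col-0 right; filled points passed the test at an adjusted p below 0.05, open points did not, and lines are medians. The medians are 0.53 and 0.65 for the ascorbate-glutathione cycle and 0.06 and 0.48 for ascorbate synthesis.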

How the data were processed

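RNA-seq reads of whole seedlings were summarised by the authors as raw counts per gene, deposited as a single table of 18 libraries of Arabidopsis thaliana. Tools listed in the submitters' processing notes are STAR 2.7.9a, Subread 2.0.6 with featureCounts, and fastp 0.24.0. The genome build, annotation, strand setting and treatment of multiply mapped reads are not given in the sources used here. In each library 75.4% to 83.3% of the counts above 0 were even, so halved counts were tried as an alternative. The 36 Marchantia polymorpha samples were not analysed here.

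Groups and batches follow the labels. The labels do not state whether replicates are separate cultures; the p-values therefore reflect the spread among these samples alone, possibly a technical one. All 36 replicate pairs differed beyond sampling noise by chi-square. The members and lists were chosen with earlier results of these data known, and the clock genes after their values were seen.

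Counts were fitted over all 18 libraries by edgeR 4.0.16 under R 4.3.3, with the filterByExpr filter, TMM scaling and the robust quasi-likelihood fit and test (glmQLFit, glmQLFTest), with terms for group and for batch. The batch term is shared by the lines. A second fit of the control libraries gave batch differences and the within-batch values of the lines. Calls use a Benjamini-Hochberg adjusted p below 0.05 over all genes tested, which were 22696 over all libraries and 22443 over the control libraries. Each SE was taken as |log2 change|/√F from the quasi-likelihood F and may be too small where a group has almost no counts. CPM use TMM factors, which averaged 1.02 and 1.11 in heat and control libraries labelled eTK and 0.655 and 1.11 in those of Col-0. Summed levels and shares were compared in batch 1 by two-sided exact permutation. Exon lengths, positions and promoters come from TAIR10.1, to which 27445 identifiers matched. Within each list, the 3 called genes with the largest change in each heat comparison are named, and for each member the 3 genes with the highest Pearson r of log2 CPM with a prior count of 2. GR2, and the other list genes called in the interaction, lie outside this rule and were chosen after their values were seen, as were the other genes named beside a count of 5 or fewer. The fit was tested on simulated data. Alternatives were library size alone, relative log expression scaling, DESeq2 1.42.0, no filter, batch 1 alone, a replicate block, a batch effect per line, halved counts, and each library left out. Some alternatives were chosen after seeing the data. They were the batch effect per line, DESeq2 on the control libraries, the omitted libraries for batch differences and library size alone for sums.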

Additional observations from a re-analysis of the deposited data

Results flagged for a closer look

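SAPX stood apart in 1 library: Col-0 control replicate 6 had 90.9 CPM, while the other 5 Col-0 control libraries lay between 117 and 131 CPM, a gap that exceeded Dixon's 95% limit. Members were examined in 20 control sets in this way, each with both batches pooled. Chance marks about 1 set in 20 where the libraries of a set are alike. For members that differ between batches this rate does not hold, and the wider range can hide an outlier.

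APX1 and APX2 differed between the lines in their heat change. The difference, libraries labelled eTK minus Col-0, was −0.47 for APX1 and −9.44 for APX2 on the log2 scale, each past the interaction test.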

How the results depend on the processing

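Alternatives gave 1280 values for the members in the 5 comparisons, of which 1181 kept direction and call, 20 gained a call, 26 lost one and 53 changed sign. No called change in heat changed sign in either line, and of called differences only the APX1 interaction did, under library size alone. That scaling, which moved the median of all genes to −0.75 for heat in Col-0, to 0.63 for the interaction and to 0.64 between the lines in heat, called 3 members higher and 4 lower in Col-0 heat, 7 higher and 1 lower in the interaction (15347 genes called), and 7 higher and 1 lower between the lines in heat (16939 genes). With it, APX5, SAPX and TAPX stood at −0.42, −0.64 and −0.47 in Col-0 heat and SAPX at −0.053 in heat labelled eTK. The interaction was then 0.16 for APX1, 0.41 for APX3, 0.41 for APX6, 0.59 for SAPX, 0.50 for CAT2 and 0.41 for CAT3. Between the lines in heat APX3 was at 0.55, APX6 at 0.52, SAPX at 0.37 and CAT1 at 0.40. Lists in Col-0 heat then held 1 higher and 2 lower (cycle), 1 and 4 (synthesis), 4 and 5 (peroxiredoxins and glutathione peroxidases), 3 and 6 (sources) and 1 higher (partners), and summed chloroplast forms stood at −0.64. Relative log expression scaling called 0 members lower in Col-0 heat and 1 synthesis gene lower in heat labelled eTK, and put the APX5 interaction at −0.0069, as DESeq2 did at −0.0070. Batch 1 alone and a batch effect per line put SAPX at −0.070 and −0.069 in Col-0 heat, the SAPX interaction at 0.26 in both, and the CAT1 interaction at −0.056 and −0.057; a batch effect per line called 0 members lower in Col-0 heat. Batch 1 alone put APX5 at −0.24 and APX6 at −0.012 between the lines in control. DESeq2 called 2756 genes and 1 member higher in genotype by batch. The cause was not tested where no value above shows it. In a promoter window of 300 bases 6 members hold a motif of 2 units, against 4 before the start.

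Leaving out each library in turn gave these ranges: members called lower in Col-0 heat 0 to 1; SAPX −0.15 to 0.23 in Col-0 heat and −0.089 to 0.092 in heat labelled eTK; interactions of SAPX −0.20 to 0.18, APX5 −0.19 to 0.23, CAT1 −0.069 to 0.19 and TAPX −0.082 to 0.12; in control between the lines APX5 −0.054 to 0.15, APX2 −0.35 to 0.16 and 1 to 2 members lower; in heat between the lines CAT2 −0.032 to 0.13 and APX5 −0.13 to 0.29. Between batches in Col-0 they were APX3 −0.042 to 0.041, APX6 −0.041 to 0.062 and SAPX −0.15 to 0.056. In libraries labelled eTK 2 to 4 members were higher in batch 2. Genotype by batch called 476 to 3323 genes and 0 to 1 members higher, the upper value of both without eTK control replicate 6, and summed chloroplast forms in Col-0 heat ranged from −0.065 to 0.16.

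Of 21 same-numbered pairs of libraries, 3 had a correlation of deviations over 0.1 (−0.22 to 0.23). Differently numbered pairs reached from −0.22 to 0.16. In batch 2 controls the same-numbered pairs gave 0.03, 0.14 and 0.23. As deviations were taken from means of 3 libraries, these values cannot show whether replicate numbers pair the samples. With a replicate block 14143 genes were called for heat in Col-0, against 14448, and 6 members higher, TAPX included (adjusted p = 0.0303). APX2 in control and APX5 are limited by depth, at 0 to 12 and 92 to 336 counts per library. Batch and heat cannot be separated in batch 2, which holds no heat library.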
